A study of Saccharomyces cerevisiae with 18 samples.

Results

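The expression of 5363 genes was compared between 2 haploid strains of the budding yeast Saccharomyces cerevisiae growing in 7% ethanol. The comparison uses 4 of the study's 18 microarrays, chosen by their labels: 2 of the haploid strain labelled mating type alpha and 2 of the haploid strain labelled mating type a. The other 14 arrays hold the same haploids in medium with 0% and 3% ethanol, and a diploid strain at all 3 levels, with 2 arrays in each of the 9 groups. All 3 strains are described as ethanol tolerant, and the labels name no strain background, marker genes or parentage. Cultures were grown in fermentors in a rich medium of yeast extract, peptone and glucose with ethanol added by volume, and were harvested in mid-exponential phase, so that both haploid groups differed in strain and shared the medium, the ethanol level and the growth phase. Each haploid is represented by a single strain, and the labels do not say whether its 2 arrays came from separate cultures. The p-values therefore measure the spread between these arrays, which may be technical, and the small number of arrays limits their precision. The labels give no other property of the strains, and strain, fermentor run and any batch of processing cannot be told apart.

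Ethanol disturbs the plasma membrane and cellular proteins, and yeast is known to meet it with the environmental stress response. In that response the transcription factors Msn2 and Msn4 induce genes for chaperones, antioxidant enzymes and the storage carbohydrates glycogen and trehalose, while genes for ribosome assembly are turned down. Respiratory and other carbon-source genes are held low while glucose is plentiful, and cell-surface adhesins such as Flo11 let cells stick to each other and to surfaces.

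The mating-type labels were first set against the genes that define each cell type. MF(ALPHA)1, which encodes most of the alpha-factor pheromone, had a scaled signal of 4499 and 4973 on the arrays of the alpha-labelled strain and 4457 and 4745 on those of the a-labelled strain, with a difference smaller than its SE (0.04 ± 0.116 log2 ± SE, adjusted p = 0.8042). Both diploid arrays at 7% lay far below them, at 16.6 and 10.4. HMRA1, the a1 regulator that an a cell should transcribe, stood above the background limit on 0 of the 4 haploid arrays and on both diploid arrays, at 55.4 and 57.5. The a-specific genes were low in both haploids but not all at background, which had a limit of 5.21 to 5.67. STE2, the alpha-factor receptor, had 31.4 and 32.5 in the alpha-labelled and 31.9 and 29 in the a-labelled strain, the highest values of the 7 a-specific genes, and 20.3 and 27.9 in the diploid. STE6, the a-factor exporter, and MFA2, an a-factor gene, were also above the limit on all 4 haploid arrays, with 18.5 and 20.6 against 22.4 and 26.9 and 16.6 and 18.4 against 23.8 and 17.2. MFA1, the other a-factor gene, had 9.44 and 4.83 against 7.67 and 19.8. By these markers the strain labelled a had the main transcripts of an alpha cell. The comparison is therefore described as a difference between strains and not between mating types, and the strains are called by their labels.

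Signals are the deposited array intensities after each array was scaled to the same trimmed mean, and every difference is log2(signal + 16) of the alpha-labelled strain minus that of the a-labelled strain, so that a positive value means a higher signal in the alpha-labelled strain. A gene was called higher or lower where limma's test, run over all 18 arrays and adjusted by Benjamini-Hochberg over the 5363 genes, gave an adjusted p under 0.05. An exact permutation test of 2 arrays against 2 cannot give a p below 0.333 and was not used. Before scaling the strains lay apart in overall intensity, with trimmed means of 408.7 and 368.5 on the alpha-labelled and 443.7 and 461.5 on the a-labelled arrays. The genes above the background limit numbered 5296 and 5291 against 5324 and 5333. The actin 3'/5' probe ratio, a measure of RNA quality, overlapped between the strains at 1.13 to 1.19. The control probe set for 18S ribosomal RNA varied within both strains, at 1844 and 410.7 in the alpha-labelled and 206 and 1065 in the a-labelled strain, and its values overlapped. Genes are identified by symbol and systematic name, and 104 of the genes tested were read by a probe set that can also match a related sequence, which leaves the share of each copy unknown.

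At 7% ethanol 923 genes (17.2% of those tested) were higher in the alpha-labelled strain and 1537 (28.7%) were lower. The largest differences were mostly on the low side: 204 genes (3.8%) were lower by at least 2-fold and 31 (0.578%) were higher by at least 2-fold. How many genes fell on each side depended on the scaling of the arrays. With the arrays centred on their medians 1485 were higher and 1085 lower, with quantile normalization 1378 and 1136, and with no scaling 193 and 1921. The median difference of all genes moved with it, from -0.07 as scaled to 0.07 after median centring, 0.05 after quantile normalization and -0.25 with no scaling, so a small shift of a gene group has to be read against that median. The 2-fold calls stayed more numerous on the low side under each of these scalings, at 148 to 345 lower and 17 to 58 higher.

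**Figure D1:**
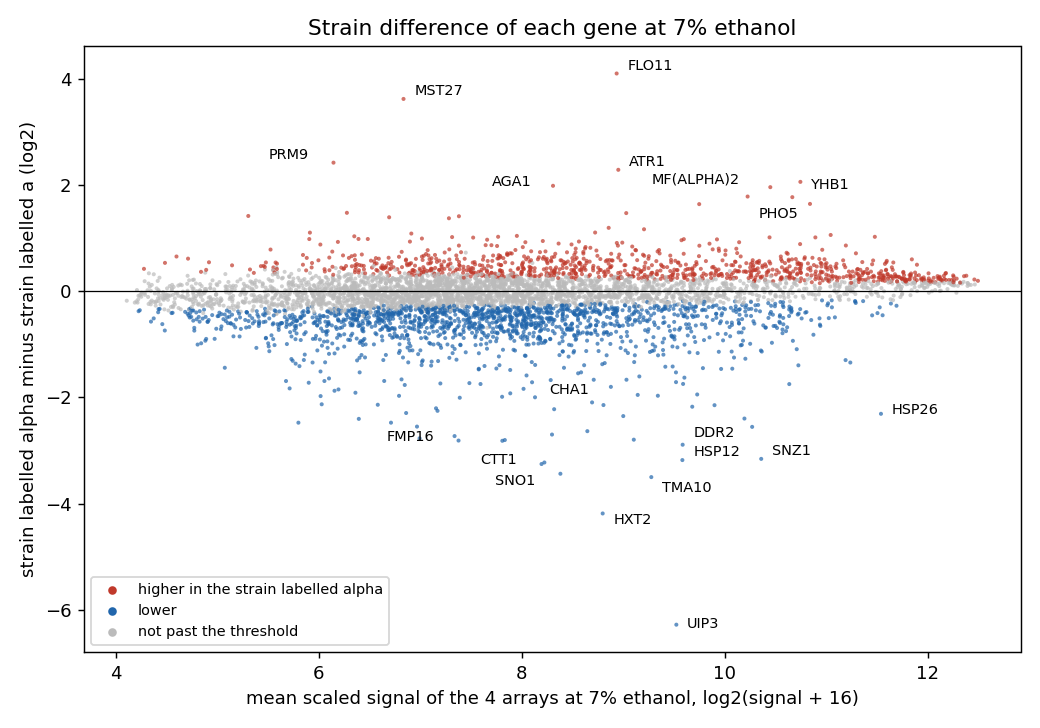
Each point is 1 of the 5363 genes, placed by its mean signal over the 4 arrays at 7% ethanol (x axis, log2(signal + 16)) and by the difference between the strains (y axis, log2, positive where the alpha-labelled strain was higher), and coloured by whether the test called it. FLO11 and MST27 stand highest at 4.10 and 3.62, UIP3 and HXT2 stand lowest at -6.28 and -4.18, and more genes lie below -1 than above 1.

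The largest difference on the high side was in FLO11 (YIR019C), the flocculin that makes cells adhere and form biofilms and pseudohyphae. Its signal was 910.3 and 907 in the alpha-labelled strain and 45.9 and 31.1 in the a-labelled strain, and the strains did not overlap. The difference was 4.10 ± 0.151, or 17.1-fold on the signal + 16 scale (adjusted p = 2.813e-14). In these bulk RNA samples more cells that express a gene and more RNA per cell cannot be told apart. FLO11 was low in every other group of the study. In the alpha-labelled strain it stood at 33.1 and 26.4 at 0% ethanol and at 46.9 and 35.7 at 3%. The a-labelled strain had 60.9 and 70.5 at 0% and 35.9 and 51.1 at 3%, and the diploid had 30.6 and 30.8 at 7%. The strain difference at 7% exceeded that at 0% by 4.94 ± 0.214 (adjusted p = 1.716e-12) and that at 3% by 4.15 ± 0.214 (adjusted p = 6.949e-11).

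Of the 6 measured flocculation genes 2 were higher and 1 lower, against 17.2% and 28.7% of all genes. MSS11, an activator of FLO11, was higher in the alpha-labelled strain at 7% (0.66 ± 0.123, adjusted p = 0.0002126) and was also higher at 0% (0.53) and 3% (0.45). MGA1, a heat-shock-factor-like regulator of filamentous growth, was lower (-0.80 ± 0.129, adjusted p = 4.595e-05). FLO8, the other main activator of FLO11, differed by -0.01 ± 0.116 (adjusted p = 0.9733). The other flocculin genes measured, FLO9 through a shared probe set and FLO10, differed by -0.26 ± 0.154 (adjusted p = 0.1839) and -0.11 ± 0.162 (adjusted p = 0.6182). Their signals were low, at 11.1 and 8.33 against 14.2 and 15.1 for FLO9 and 1.2 and 5.35 against 5.64 and 3.71 for FLO10. FLO10 was thus near or below background in both strains, where a strain difference cannot be measured well.

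**Figure D2:**
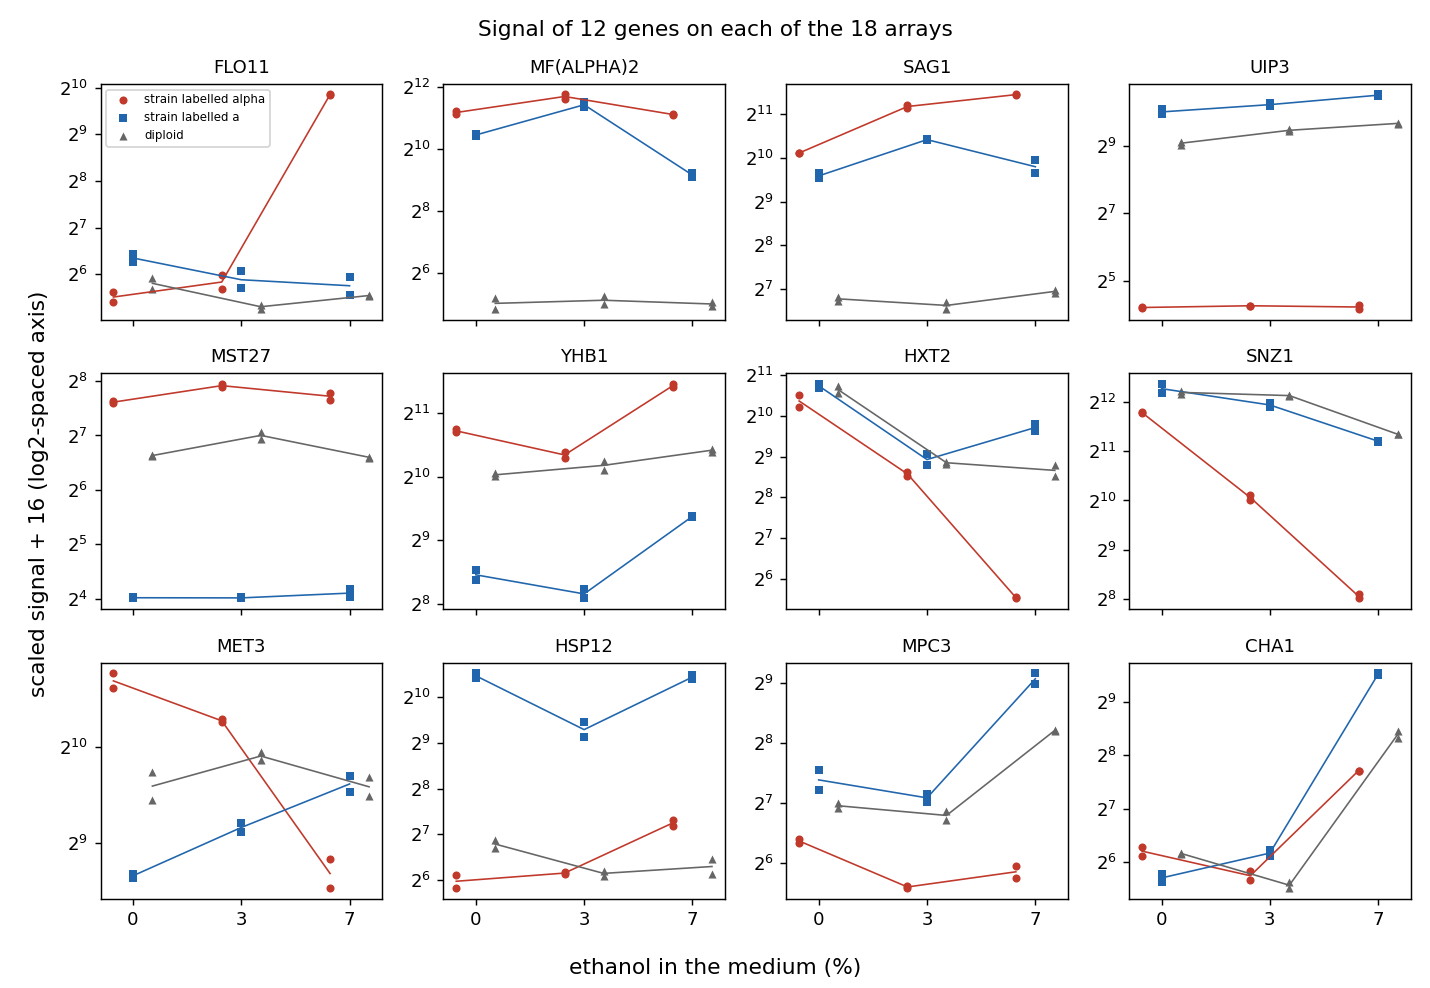
Scaled signal + 16 (y axis, log2-spaced) of 12 genes on each of the 18 arrays against the ethanol level (x axis, percent), 1 panel per gene. Points are single arrays and lines join the means of 2 arrays, for the strain labelled alpha, the strain labelled a and the diploid. FLO11 leaves the low level of all other haploid arrays only on the alpha-labelled arrays at 7%. HXT2 and SNZ1 have their lowest haploid signals on those same arrays, and UIP3 and MST27 are apart between the haploids at all 3 levels.

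Several of the largest differences were in the DUP240 family, small membrane proteins that include helpers of vesicle traffic and whose gene copies are known to vary between yeast strains. UIP3 (YAR027W) had a signal of 2.02 and 3.46 in the alpha-labelled strain, at or below background, and 1462 and 1413 in the a-labelled strain. The separation was complete, and UIP3 was at least 254-fold lower in the alpha-labelled strain (-6.28 ± 0.0914, adjusted p = 3.038e-21). MST27 (YGL051W) went the other way, with 204 and 186 in the alpha-labelled strain and 0.273 and 2.13 in the a-labelled strain, where it was below background. It was at least 37.4-fold higher in the alpha-labelled strain (3.62 ± 0.108, adjusted p = 7.306e-16). PRM9 (YAR031W) had 104 and 102 against 8.17 and 4.57, again with no overlap, a difference of 2.42 ± 0.121 (adjusted p = 2.622e-12).

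These 3 differences were present at every ethanol level. UIP3 differed by -5.80 at 0% and -5.96 at 3%, MST27 by 3.60 and 3.90, and PRM9 by 2.74 and 3.12. The diploid at 7% carried all of them at levels between the haploids, with 789.7 and 806 for UIP3, 80.1 and 81.8 for MST27 and 57.4 and 49 for PRM9. The other measured family members were lower in the alpha-labelled strain at 7%, PRM8 (-0.98 ± 0.2, adjusted p = 0.0004759) and MST28 through a shared probe set (-0.64 ± 0.119, adjusted p = 0.0001948). UIP3, PRM9 and MST28 follow one another among the 21 measured genes of the right arm of chromosome I in the current RefSeq yeast annotation. On the same arm the last positions are held by YAR068W, an uncharacterized gene, and PHO11, an acid phosphatase gene read by a shared probe set. YAR068W had 0.802 and 0.953 in the alpha-labelled and 66.5 and 90.7 in the a-labelled strain (at least 13.7-fold lower, adjusted p = 4.092e-11), and PHO11 had 0.366 and 4 against 29.7 and 36.8 (at least 5.85-fold lower, adjusted p = 7.497e-08).

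At 7% ethanol 5 genes stood above the background limit on both arrays of the alpha-labelled strain and on neither of the a-labelled strain, and 22 showed the reverse. More genes stood above the limit on the a-labelled arrays in general, at 5324 and 5333 against 5296 and 5291. Of the genes so split, CDA1, SFC1, SRT1, SUL1, YBR090C, YLL066W-B and YML054C-A were not past limma's threshold (adjusted p from 0.06103 to 0.2148). Over all 3 ethanol levels, 1 gene (MST27) was above the limit on all 6 alpha-labelled and no a-labelled arrays. The reverse held for 5 genes, UIP3, YAR068W, PHO11, YIL046W-A and YNL018C. YNL018C, an uncharacterized gene, had 4.64 and 0.751 against 22.7 and 19.9 at 7% (at least 3.76-fold lower in the alpha-labelled strain), and YIL046W-A, also uncharacterized, had 0.505 and 0.123 against 5.45 and 11.4. A missing gene, a sequence change under the probes and a low transcript level cannot be told apart on these arrays. Among the 333 tested genes within 15 gene positions of a chromosome end 7.81% differed by at least 2-fold, against 4.16% of the 5030 elsewhere. The shares called lay closer, at 16.2% higher and 29.7% lower near the ends and 17.3% and 28.6% elsewhere.

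Alpha-cell genes were higher in the alpha-labelled strain although both haploids transcribed them. Of the 6 measured alpha-specific genes 5 were higher at 7% and none lower, against 17.2% and 28.7% of all genes. The median of the 6 was 0.62, and 3 of them were higher with no scaling between arrays. MF(ALPHA)2, the lesser alpha-factor gene, had 2162 and 2252 in the alpha-labelled strain and 535 and 578 in the a-labelled strain, without overlap (1.96 ± 0.112, adjusted p = 2.213e-11). SAG1, the alpha-agglutinin that binds the partner cell, had 2769 and 2746 against 964 and 788 and was also fully separated (1.64 ± 0.092, adjusted p = 1.781e-11). STE3, the a-factor receptor, had 1197 and 1171 against 644 and 615 (0.89 ± 0.0892, adjusted p = 1.035e-07). AFB1, the a-factor barrier protein, was higher by 0.35 ± 0.0898 (adjusted p = 0.003398), and HMLALPHA1, read by a probe set shared with the silent copy, by 0.25 ± 0.0938 (adjusted p = 0.03218).

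The gap was wider at 7% than at 0% in 5 of the 6 alpha-specific genes. For MF(ALPHA)2 the alpha-labelled strain stayed between 2162 and 3474 at all levels, while the a-labelled strain had 1358 and 1419 at 0%, 2608 and 2896 at 3% and its lowest values at 7%. Its difference at 7% exceeded that at 3% by 1.69 ± 0.158 (adjusted p = 8.669e-07) and that at 0% by 1.23 ± 0.158 (adjusted p = 1.277e-05). Over the whole list 5 of 6 genes had a more positive difference at 7% than at 0%, as did 7.4% of all genes, and 3 had a more positive one than at 3%, as did 1.88% of all genes. The exception at 0% was MF(ALPHA)1, with a change of 0.19 ± 0.164 (adjusted p = 0.3826). These changes use the same 7% arrays as the calls at 7%.

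Single genes of the pheromone pathway were higher or lower. AGA1, the anchor subunit of the a-agglutinin and a pheromone-induced gene, had 478 and 501 in the alpha-labelled strain and 123 and 102 in the a-labelled strain, with no overlap (1.98 ± 0.166, adjusted p = 7.575e-09). Its difference was 1.16 at 3% and 0.40 at 0%, the latter with an adjusted p of 0.0525. SST2, which quenches pheromone signalling at the G protein, had 213 and 205 against 71.3 and 70.2 (1.37 ± 0.108, adjusted p = 3.188e-09). PRM7, a pheromone-regulated gene, had 100.5 and 95.9 against 25.2 and 24.9 (1.48 ± 0.133, adjusted p = 2.283e-08). Over the whole lists, 5 of 14 haploid-specific genes were higher and 3 lower, and 4 of 17 pheromone-induced genes were higher and 4 lower, the latter near the 17.2% and 28.7% of all genes. STE12, the transcription factor of the pathway, was higher (0.58), as were AXL1, HO and FUS3 of the haploid-specific list and MSB2, PRM5 and CIK1 of the pheromone-induced list. RME1, the repressor of meiosis, was lower (-1.01 ± 0.115, adjusted p = 6.656e-07), together with STE18 and NEJ1 and, among the pheromone-induced genes, KAR5, PRM2, FUS1 and PRM10. Without array 2 of the a-labelled strain 1 haploid-specific gene was lower. Of 7 a-specific genes 1 was called, the a-agglutinin subunit AGA2, which was lower at near-background signals of 2.92 and 5.75 against 11.7 and 10.1 (adjusted p = 0.02513), a call that held without array 2 of the alpha-labelled strain and was lost when any 1 of the other 3 was left out.

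Among the other large differences on the high side were genes of detoxification and transport. ATR1, a plasma membrane drug exporter, had 838 and 773 in the alpha-labelled and 156 and 149 in the a-labelled strain (2.29 ± 0.0939, adjusted p = 1.15e-13). YHB1, the flavohemoglobin that removes nitric oxide, had 2700 and 2804 against 652 and 645 (2.06 ± 0.0793, adjusted p = 4.48e-14). Neither gene showed any overlap between the strains, and both were also higher at 0% and 3%, by 1.58 and 1.80 for ATR1 and by 2.27 and 2.19 for YHB1. Of 21 drug and organic acid exporter genes 8 were higher and 2, PDR3 (-0.54) and QDR1 (-0.61), lower, against 17.2% and 28.7% of all genes. Those higher included RSB1 (1.04), a sphingoid base transporter, PDR5 (0.74), the main multidrug pump, and TPO1 (0.70), a polyamine exporter.

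PHO5, the secreted acid phosphatase, had 1831 and 1845 against 489 and 559 (1.78 ± 0.0911, adjusted p = 3.775e-12). TIR4, a cell wall mannoprotein of oxygen-poor growth, had 2485 and 2506 against 729 and 712 (1.77 ± 0.084, adjusted p = 1.14e-12). MAE1, the mitochondrial malic enzyme, had 1393 and 1180 against 439 and 366 (1.64 ± 0.104, adjusted p = 1.114e-10). All 3 were separated without overlap and were higher at 0% and 3% as well. Of the remaining genes among the 15 largest positive differences, INM1, an inositol monophosphatase, had 839 and 667 against 259 and 261 (1.47 ± 0.101). AAT1, the mitochondrial aspartate aminotransferase, had 209.6 and 243 against 79.6 and 70.5 (1.41 ± 0.103). YAL065C, an uncharacterized gene, had 53 and 30.8 against 5.05 and 5.54 (1.42 ± 0.142). The largest adjusted p among these 3 was that of YAL065C, 1.146e-07.

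The general stress program stood lower in the alpha-labelled strain. Of 42 measured genes under Msn2 and Msn4, 36 were lower at 7% and 1 was higher, against 28.7% and 17.2% of all genes. Of the 42, 25 were lower by at least 2-fold, as were 3.8% of all genes. The median difference of the 42 was -1.34, against -0.07 over all genes, and the members ranged from -3.50 to 0.26. TMA10, a stress-induced ribosome-associated protein, had 82.9 and 86 in the alpha-labelled strain and 1028 and 1221 in the a-labelled strain (-3.50 ± 0.115, adjusted p = 4.314e-15). HSP12, a small membrane-stabilizing heat shock protein, had 143 and 130.1 against 1400 and 1329 (-3.18 ± 0.13, adjusted p = 1.119e-13). The arrays did not overlap in either gene. MSC1, a gene linked to meiotic recombination, was lower (-2.09 ± 0.09, adjusted p = 2.434e-13) and so was RGI1, a respiratory growth gene (-1.95 ± 0.0805, adjusted p = 1.158e-13). The member that was higher was MRH1 (0.26 ± 0.0809, adjusted p = 0.01192), a plasma membrane protein, and this call was lost without array 2 of either strain.

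Stress genes were also lower at the other ethanol levels. At 3% 32 of the 42 genes were lower, with a median of -1.20, where 19.1% of all genes were lower and their median was 0.01. At 0% 36 were lower, with a median of -1.18, where 15.8% of all genes were lower and their median was 0.13. Against 0%, the difference at 7% was more negative in 12 of the 42 genes, where 30.5% of all genes had a more negative one, and more positive in 10, where 7.4% had a more positive one. HSP12 was among the latter, at -4.48 at 0%, where its signal was 53.7 and 41 in the alpha-labelled and 1342 and 1442 in the a-labelled strain. TMA10 was among the former, with -0.95 at 0% and -2.24 at 3%.

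**Figure D3:**
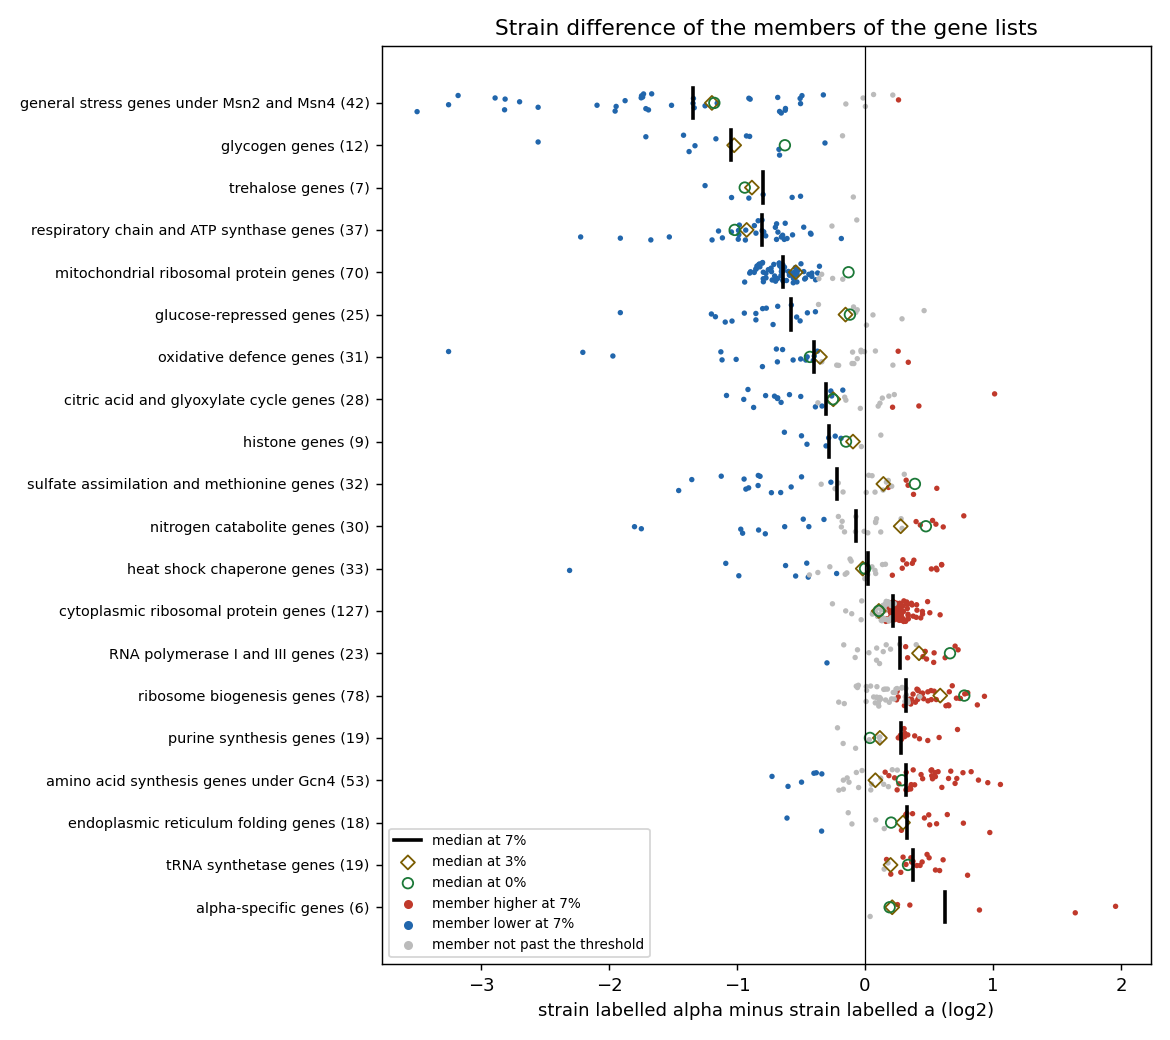
Differences between the strains at 7% ethanol (x axis, log2, alpha-labelled minus a-labelled) of every measured member of the gene lists (y axis, number of members in brackets), coloured by call, with a black bar at the list's median at 7%, an open diamond at its median at 3% and an open circle at its median at 0%. The medians of the general stress, glycogen, trehalose and respiratory lists lie to the left of 0 at all levels, that of the mitochondrial ribosomal protein genes goes from -0.13 at 0% to -0.64 at 7%, and that of the sulfur genes passes from the right of 0 at 0% to its left at 7%.

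Genes of the storage carbohydrates were lower with the stress genes. For glycogen, 11 of 12 genes were lower and none higher, with a median of -1.05, where 28.7% and 17.2% of all genes were. GPH1, the glycogen phosphorylase, had 349 and 338 in the alpha-labelled strain and 2071 and 2118 in the a-labelled strain, a gap without overlap (-2.55 ± 0.0948, adjusted p = 2.813e-14). The glycogen synthase genes GSY2 and GSY1 were lower (-1.71 ± 0.116 and -1.37 ± 0.0947), as were the debranching enzyme gene GDB1 (-1.42 ± 0.12), and the glycogenin gene GLG1 (-1.33 ± 0.115). GLG1 had differed by 0.21 at 0% (adjusted p = 0.144), the others of these 5 being lower there too. For trehalose, 6 of 7 genes were lower and none higher, with a median of -0.80. TSL1 and TPS2, of the trehalose synthase complex, were lower (-1.25 ± 0.0813 and -0.91 ± 0.0765), as were its catalytic subunit gene TPS1 (-0.50 ± 0.074), and the trehalase gene NTH1 (-1.04 ± 0.0883). TPS3 differed by -0.09 ± 0.0761 (adjusted p = 0.3479).

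Of 31 oxidative defence genes 17 were lower and 2 higher, against 28.7% and 17.2% of all genes. CTT1, the cytosolic catalase, had 35.7 and 43.7 in the alpha-labelled strain and 538 and 491 in the a-labelled strain (-3.25 ± 0.214, adjusted p = 1.96e-10). GPX1, a glutathione peroxidase, had 34.4 and 35 against 197 and 240.4 (-2.20 ± 0.136, adjusted p = 7.581e-11). Neither overlapped between the strains, and TSA2 (-1.97), GTT1 (-1.13) and PRX1 (-1.12), a peroxiredoxin, a glutathione transferase and the mitochondrial peroxiredoxin, were lower too. The 2 that were higher were OYE2 (0.34 ± 0.07), an NADPH oxidoreductase, and TSA1 (0.26 ± 0.0595), the main cytosolic peroxiredoxin. Of 33 heat shock chaperone genes 11 were higher and 8 lower, against 17.2% and 28.7% of all genes. HSP26, a small heat shock protein, had 990.3 and 972 against 5312 and 4563 and was lower (-2.31 ± 0.102, adjusted p = 3.441e-13), with SSA4 (-1.09), the stress-induced Hsp70, and HSP78 (-0.99), the mitochondrial disaggregase. The others lower were SSE2 (-0.62), HSP42 (-0.54), HSP31 (-0.45), HSP104 (-0.44) and HSP10 (-0.22). SSA2, a constitutive Hsp70, was higher (0.60 ± 0.0782, adjusted p = 3.601e-06), as were YDJ1 and SIS1, its Hsp40 partners (0.60 and 0.56). With no scaling between arrays 2 chaperone genes were higher and 11 lower.

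Genes of mitochondrial respiration were lower almost throughout. Of 37 respiratory chain and ATP synthase genes 35 were lower and none higher, with a median of -0.80. These were 9 of 9 cytochrome c oxidase genes, 8 of 9 cytochrome bc1 genes and 11 of 12 ATP synthase genes, and the rest belong to other parts of the chain. CYC7, the cytochrome c isoform of low oxygen and stress, had 93.1 and 100.3 in the alpha-labelled strain and 475 and 546 in the a-labelled strain (-2.22 ± 0.102, adjusted p = 6.798e-13). The strains were fully apart in this gene. NDI1, the internal NADH dehydrogenase, was lower (-1.67 ± 0.114), as were CYB2, the lactate dehydrogenase gene (-1.91 ± 0.133), and the iron-sulfur protein gene RIP1 (-0.93 ± 0.0745). The same list was lower in 36 genes at 3% (median -0.92) and in all 37 at 0% (median -1.02). Of all genes 19.1% and 15.8% were lower at these levels. CYC1, the main cytochrome c gene, had 176 and 177 against 382 and 349 at 7% (-0.99) and a larger gap at 3% (-2.28), the change between these levels being 1.30 ± 0.206 (adjusted p = 0.0003754). In the citric acid and glyoxylate cycles 16 of 28 genes were lower and 3 higher, against 28.7% and 17.2% of all genes. LSC2 (-0.91), MDH1 (-0.78) and SDH2 (-0.87) were among those lower, and DLD3 (1.01), a cytosolic lactate dehydrogenase, was higher. Also higher were IDP1 (0.42) and IDH2 (0.22), of isocitrate oxidation.

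Mitochondrial ribosomal protein genes were lower too, and more of them than at 0%. At 7% 66 of 70 were lower and none higher, against 28.7% and 17.2% of all genes. The median of the 70 was -0.64. Those lower covered 34 of 36 large-subunit and 19 of 20 small-subunit genes that could be sorted by name. None of the differences reached 2-fold: MRPL31, MRPL32, MRPS9, MRPL23 and RSM24, those with the smallest p-values, had differences of -0.83 ± 0.0946, -0.85 ± 0.0987, -0.87 ± 0.101, -0.89 ± 0.105 and -0.90 ± 0.108. At 3% 63 genes were lower (median -0.54) and at 0% 24 were lower and 2 higher (median -0.13). Of all genes 19.1% were lower at 3%, and 15.8% were lower and 34.7% higher at 0%. Against 0%, 38 of the 70 had a more negative difference at 7%, where 30.5% of all genes did, and none a more positive one, while the median of all genes moved by -0.21.

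HXT2 (YMR011W), a high-affinity glucose transporter, had the second largest negative difference. Its signal at 7% was 29.6 and 31 in the alpha-labelled strain and 875 and 781 in the a-labelled strain, so the strains were far apart (-4.18 ± 0.112, 18.2-fold, adjusted p = 1.557e-16). At 0% both strains had it high, at 1187 and 1442 in the alpha-labelled and 1757 and 1647 in the a-labelled strain. At 3% both were lower, at 355 and 376 against 431 and 516. At 7% the alpha-labelled strain was lower still, while the a-labelled arrays lay above their 3% values and the diploid had 352 and 430.5. The difference at 7% departed from that at 0% by -3.81 ± 0.158 (adjusted p = 1.156e-12) and from that at 3% by -3.83 ± 0.158 (adjusted p = 2.095e-12).

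Of 15 hexose transporter and sensor genes 5 were lower and 2 higher, near the shares of all genes (28.7% and 17.2%), and 1 was higher when any 1 of the arrays but array 2 of the a-labelled strain was left out. HXT3, a low-affinity transporter, had 3029 and 2976 against 1705 and 1590 and was higher (0.86 ± 0.0615, adjusted p = 7.065e-10), as was the glucose sensor gene RGT2 (0.48). MTH1, a repressor of HXT genes, was lower (-0.80 ± 0.146, adjusted p = 0.0001779). Among 25 glucose-repressed genes 17 were lower and none higher, with a median of -0.58. SUC2, the invertase, had 1081 and 1026 against 2325 and 2202 (-1.09 ± 0.102, adjusted p = 3.916e-08), and CAT2, the carnitine acetyltransferase, and ADH2, the ethanol-consuming alcohol dehydrogenase, were lower (-1.17 ± 0.113 and -1.20 ± 0.133). For this list 7 genes were lower at 3% and 8 at 0%, where 19.1% and 15.8% of all genes were lower. Its medians there were -0.15 and -0.12. Its difference at 7% was more negative than at 0% in 11 of 25 genes, against 30.5% of all genes, and more negative than at 3% in 7, against 4.49% of all genes.

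Genes of ethanol and acetaldehyde use, a list of 20, split into 10 lower and 6 higher, against 28.7% and 17.2% of all genes. BDH2, a putative dehydrogenase next to the butanediol dehydrogenase gene BDH1, had 22.3 and 18.8 against 182 and 214 (-2.55 ± 0.152, adjusted p = 4.451e-11). ALD4 and ALD6, the mitochondrial and cytosolic aldehyde dehydrogenases that make acetate, had 903 and 928 against 2547 and 2329 (-1.40 ± 0.0678) and 542 and 488 against 1570 and 1332 (-1.46 ± 0.0905). None of these 3 overlapped between the strains. ADH5, an alcohol dehydrogenase that forms ethanol, was higher (0.64 ± 0.0642, adjusted p = 1.198e-07), as were ADH4 (0.56), ADH6 (0.41), ADH3 (0.26) and the pyruvate decarboxylase genes PDC1 (0.29) and PDC5 (0.26). GPP1, a glycerol-3-phosphatase, was higher with 3500 and 4126 against 1836 and 1886 (1.02 ± 0.0764).

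MPC3 (YGR243W), the mitochondrial pyruvate carrier subunit of respiratory growth, had 45.9 and 37.7 in the alpha-labelled strain and 490.2 and 558 in the a-labelled strain (-3.22 ± 0.121, adjusted p = 2.818e-14). Its difference was -1.49 at 3% and -1.02 at 0%, and the step from 3% to 7% was -1.74 ± 0.171 (adjusted p = 1.643e-06). DDR2, a multi-stress response gene, had 167 and 166 against 1371 and 1304 (-2.89 ± 0.149, adjusted p = 4.463e-12). NQM1, a transaldolase paralogue, had 38.7 and 40.8 against 368 and 386 (-2.82 ± 0.132, adjusted p = 1.024e-12). Strains did not overlap in any of the 3. FMP16 and YNR014W, both of unknown function, were lower (-2.81 ± 0.128 and -2.80 ± 0.16). PIR3, a covalently bound cell wall protein, had 128 and 117 against 933 and 959 (-2.80 ± 0.141). CIN5, a transcription factor of salt and drug tolerance, had 26.9 and 26.1 against 259.9 and 271 (-2.73 ± 0.11). YDR003W-A, a small uncharacterized gene, had 16.7 and 14.8 against 153 and 261 (-2.77 ± 0.176), and its a-labelled arrays lay well apart from each other. The largest adjusted p among these 5 was 1.114e-10, for YDR003W-A.

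SNZ1 and SNO1, neighbouring genes whose products form the vitamin B6 synthesis complex, were lower together. SNZ1 (YMR096W) had 257 and 241 in the alpha-labelled and 2365 and 2327 in the a-labelled strain (-3.16 ± 0.0689, adjusted p = 4.31e-18). SNO1 (YMR095C) had 33.8 and 47.8 against 584 and 604 (-3.44 ± 0.102, adjusted p = 7.306e-16). Both were without overlap. The gap in SNZ1 widened from -0.49 at 0% to -1.89 at 3%. The alpha-labelled strain had 3564 and 3482 at 0% and 1093 and 1010 at 3%, and the a-labelled strain had 5289 and 4624 at 0% and 4017 and 3833 at 3%. SNO1 likewise differed by -1.31 at 0% and -2.82 at 3%. Over 19 thiamine and vitamin B6 genes 8 were lower and 4 higher, against 28.7% and 17.2% of all genes. PHO3, a thiamine-regulated acid phosphatase, was higher (0.98 ± 0.103, adjusted p = 2.345e-07), as were THI72 (0.54), THI3 (0.35) and THI7 (0.30). Without array 1 of the alpha-labelled strain 1 gene of this list was higher, and without array 2 of the a-labelled strain 1 was higher and 5 were lower.

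In genes of sulfate assimilation and methionine synthesis the median difference changed sides between the ethanol levels. The median of all genes moved the same way, from 0.13 at 0% through 0.01 at 3% to -0.07 at 7%. At 7% 14 of the 32 sulfur genes were lower and 5 higher, against 28.7% and 17.2% of all genes, and their median was -0.22. At 3% 5 were lower and 13 higher (median 0.14, with 17.6% of all genes higher), and at 0% 1 was lower and 20 were higher (median 0.39, with 34.7% of all genes higher). The difference at 7% was more negative than at 0% in 17 of the 32 and than at 3% in 16, against 30.5% and 4.49% of all genes. Among the 7 genes of sulfate uptake and reduction all 7 were more negative than at 0%, and their median went from 0.74 at 0% through -0.23 at 3% to -0.84 at 7%.

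MET3 (YJR010W), the ATP sulfurylase that activates sulfate, had 1542 and 1719 in the alpha-labelled and 394 and 382 in the a-labelled strain at 0%. At 7% the order was reversed, at 439 and 354 against 724 and 812, without overlap at either level. Its difference was thus 2.03 at 0%, 1.11 at 3% and -0.93 at 7%, all 3 past the threshold, and the change from 0% to 7% was -2.96 ± 0.153 (adjusted p = 3.895e-11). MET10 and MET5, the subunits of sulfite reductase, were lower at 7% (-1.46 ± 0.089 and -1.35 ± 0.0939). MET10 had 97.6 and 100.4 against 287 and 312. MET6, the methionine synthase, was lower (-0.82 ± 0.0697), and MET2, homoserine acetyltransferase, had 60.6 and 48 against 133 and 139.9 (-1.12 ± 0.137) after a positive difference of 0.50 at 3%. Higher at 7% were SAM4, SAM1, MET31, CYS3 and MUP3, of S-adenosylmethionine and cysteine metabolism, regulation and uptake. With any 1 of the 4 arrays left out 14 sulfur genes were lower, and 1 was higher without array 1 of the alpha-labelled or array 2 of the a-labelled strain and 3 without either of the others.

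Of 30 nitrogen-source genes 10 were lower and 6 higher, near the shares of all genes (28.7% and 17.2%). CHA1 (YCL064C), the serine and threonine deaminase, had 194 and 194 in the alpha-labelled strain and 710 and 721 in the a-labelled strain (-1.80 ± 0.11, adjusted p = 6.26e-11). These were the highest values of CHA1 in both strains, which had 53.8 and 62.5 against 39.2 and 33.6 at 0%. The difference of CHA1 was 0.50 at 0%, with the alpha-labelled strain higher. PUT1, proline oxidase, was lower (-1.75 ± 0.142), and so were the GABA-use genes UGA1 and UGA2 (-0.96 ± 0.0807 and -0.97 ± 0.0956). Those higher were the ammonium permease genes MEP2 (0.61) and MEP3 (0.55), the regulators GAT1 (0.77) and GLN3 (0.43), GDH1 (0.53), a glutamate dehydrogenase gene, and DAL1 (0.40), of allantoin use. In this list 11 of 30 genes had a more negative difference at 7% than at 3%, where 4.49% of all genes did.

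On the high side, genes of amino acid synthesis and translation stood out by number and not by size. Of 53 amino acid synthesis genes under Gcn4 32 were higher and 6 lower, with a median of 0.32. Of all genes 17.2% were higher and 28.7% lower. LEU2, of leucine synthesis, had 2732 and 2941 in the alpha-labelled strain and 1369 and 1337 in the a-labelled strain (1.06 ± 0.0685, adjusted p = 1.533e-10). HOM3, the aspartate kinase, had 2187 and 2228 against 1221 and 1153 (0.89 ± 0.061, adjusted p = 3.981e-10). HIS4, of histidine synthesis, had 964 and 1017 against 509 and 494 (0.96 ± 0.07, adjusted p = 9.607e-10). The strains did not overlap in these genes. By pathway, 9 of 10 genes for leucine, isoleucine and valine were higher, as were 5 of 5 for threonine and homoserine and 5 of 9 for lysine. Arginine genes differed from them, with none of 8 higher and 3 lower, namely ARG3 (-0.73), ARG8 (-0.60) and ARG4 (-0.40), and the other 3 lower members of the list were ARO3, SER33 and HIS5.

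Of 19 cytosolic tRNA synthetase genes 17 were higher and none lower, with a median of 0.38. Beside this list and the folding and purine lists below, 17.2% of all genes were higher and 28.7% lower. WRS1, for tryptophan, was higher by 0.80 ± 0.0901 (adjusted p = 5.323e-07) and DED81, for asparagine, by 0.50 ± 0.0628 (adjusted p = 2.162e-06). Of 18 genes of protein folding in the endoplasmic reticulum 12 were higher and 2 lower, with a median of 0.33. ERO1, the oxidase that drives disulfide formation, had 1246 and 1284 against 759 and 531 (0.98 ± 0.127, adjusted p = 3.474e-06), and its difference at 0% was -0.08 (adjusted p = 0.618). KAR2, the lumenal Hsp70, was higher by 0.50 ± 0.0732, and HAC1, the regulator of the unfolded protein response, by 0.46 ± 0.0706. The 2 lower were ROT1 (-0.61 ± 0.108, adjusted p = 0.0001191) and DER1 (-0.34 ± 0.108, adjusted p = 0.0148). Of 19 purine synthesis genes 12 were higher and none lower, led by IMD4 (0.72 ± 0.0785), an IMP dehydrogenase.

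These counts leaned on the scaling of the arrays, as did those of the ribosome. With no scaling, 15 amino acid genes were higher and 7 lower, 4 tRNA synthetase genes, 4 folding genes and 1 purine gene were higher, and the medians were 0.11, 0.16, 0.11 and 0.07, against -0.25 over all genes. After median centring the same medians were 0.45, 0.51, 0.46 and 0.42, against 0.07 over all genes. Of 127 cytoplasmic ribosomal protein genes 90 were higher and none lower, but the median was 0.22 and none reached 2-fold. As scaled, 17.2% of all genes were higher and 28.7% lower. RPS0A, a small-subunit protein gene, was higher by 0.51 ± 0.0565 (adjusted p = 4.941e-07). With quantile normalization 18 were higher and 1 lower, with no scaling 1 and 2, and 35 were higher without array 2 of the alpha-labelled strain and 44 without array 2 of the a-labelled strain.

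Genes for making ribosomes were higher in the alpha-labelled strain by more at 0% than at 7%. At 7% 39 of 78 ribosome biogenesis genes were higher and none lower, against 17.2% and 28.7% of all genes. The median of the 78 was 0.32. At 3% 67 were higher (median 0.59) and at 0% 70 (median 0.78), with none lower at either level and with 17.6% and 34.7% of all genes higher. NOP1, the rRNA methyltransferase fibrillarin, was higher at 7% by 0.78 ± 0.0934 (adjusted p = 1.238e-06), HAS1, a helicase, by 0.80 ± 0.126 and MAK16, a large-subunit factor, by 0.88 ± 0.14. The difference at 7% was more negative than at 0% in 47 of the 78 genes, against 30.5% of all genes. With no scaling 13 were higher at 7%, 21 without array 1 of the alpha-labelled strain and 24 without array 1 of the a-labelled strain. Of 23 RNA polymerase I and III genes 10 were higher at 7%, 15 at 3% and 17 at 0%, where 17.2%, 17.6% and 34.7% of all genes were higher. At 7% 1, RPC25 (-0.30), was lower. This call was lost with quantile normalization and when any 1 of the 4 arrays at 7% was left out.

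Smaller groups were lower as well. Of 9 histone genes 7 were lower and none higher, with HHT1, a histone H3 gene, at -0.63 ± 0.0846 (adjusted p = 5.204e-06), and 4 were lower without array 1 of the alpha-labelled strain. As scaled, 28.7% of all genes were lower and 17.2% higher. After median centring 3 histone genes were lower and 1 higher. Of 11 daughter cell separation genes 6 were lower and none higher, led by the chitinase gene CTS1, which had 364 and 364 against 1212 and 1106 (-1.63 ± 0.0809, adjusted p = 2.558e-12), and SCW11, a cell wall glucanase gene (-1.47 ± 0.116). Of 10 copper and arsenic genes 8 were lower and 1, CUP1-1, read by a shared probe set, was higher. ARR2, the arsenate reductase, had 20.1 and 18.6 against 127 and 154 (-2.14 ± 0.12, adjusted p = 1.805e-11) and its neighbour ARR3, the arsenite exporter, was lower (-1.07 ± 0.131), with both also lower at 0% (-2.51 and -1.47) and 3% (-2.28 and -1.15).

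The strain difference at 7% was then set against that at the lower levels. The comparisons at the 3 levels share no arrays. Of the 923 genes higher at 7%, 394 (42.7%) were also higher at both 0% and 3%, and 203 (22%) were called at neither. Of the 1537 genes lower at 7%, 507 (33%) were also lower at both and 417 (27.1%) were called at neither. Some genes changed sides: 219 of the genes lower at 7% were higher at 0%, and 32 of those higher at 7% were lower at 0%. The difference at 7% was more negative than at 0% in 1637 genes (30.5%) and more positive in 397 (7.4%). Against 3% it was more negative in 241 (4.49%) and more positive in 101 (1.88%). The tests against 0% and 3% share the arrays at 7%.

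**Figure D4:**
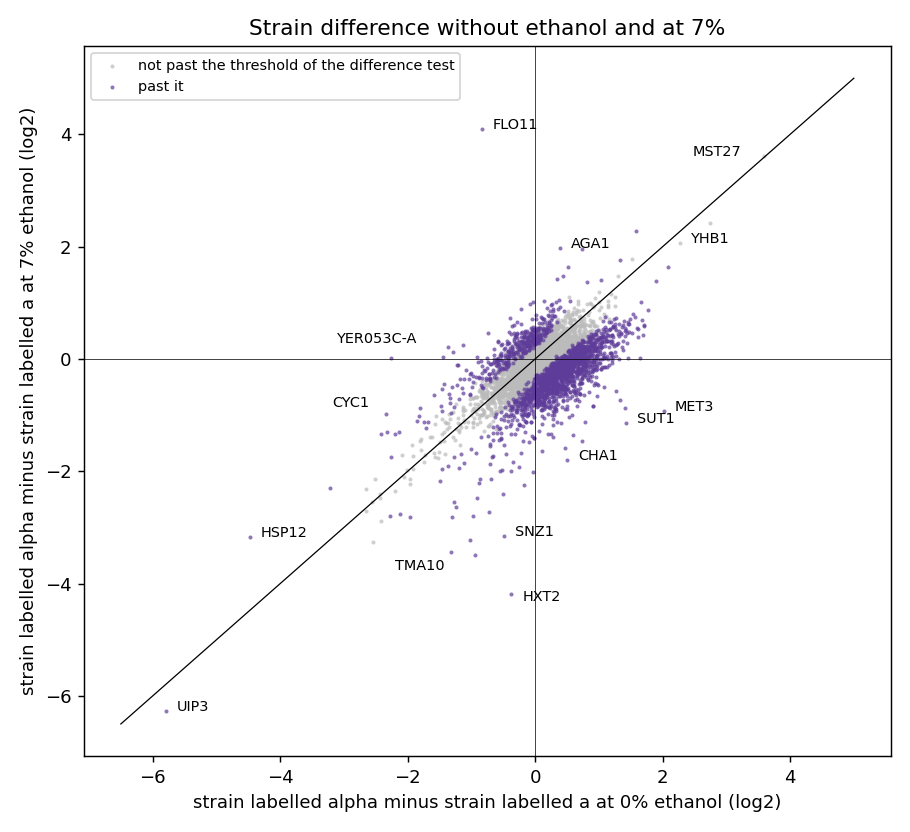
Difference between the strains (log2, alpha-labelled minus a-labelled) of each gene at 0% ethanol (x axis) and at 7% (y axis), with the line of equal differences, and with genes whose 2 differences differed past the threshold in purple. UIP3, MST27 and YHB1 lie along the line, FLO11 lies above it at -0.84 and 4.10, and HXT2, SNZ1 and MET3 lie below it.

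Beyond the genes already given, the largest changes against 0% were of 2 kinds. In YER053C-A, an uncharacterized gene, the strains met at 7%, with 235 and 264 in the alpha-labelled and 218 and 277 in the a-labelled strain, whereas at 0% they had 116 and 109 against 626 and 579. The same narrowing was seen in HMG1, the sterol pathway reductase, where the difference was -1.44 at 0% and 0.04 at 7%. It was seen in RNR3, a damage-induced ribonucleotide reductase gene, with -1.29 and 0.13, and in YRO2, a stress-induced membrane protein gene, with -1.37 and 0.22. In SUT1, a regulator of sterol uptake, the order was reversed: the alpha-labelled strain had 134 and 151 against 40.2 and 45.3 at 0% and 209 and 181 against 389 and 513 at 7%. Both of its differences, 1.43 and -1.14, were past the threshold.

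Against 3%, YKR075C, an uncharacterized gene, had a gap that opened at 7%, with 50.6 and 51.1 against 250.2 and 255 (-2.01 ± 0.16, adjusted p = 3.692e-09) after -0.33 at 3% (adjusted p = 0.1094). ZPS1, a zinc- and pH-regulated cell wall gene, had a large gap at 3% that was small at 7%, and the a-labelled arrays stood at 526 and 563 at 3% and 202 and 197 at 7%. Its difference was -1.82 at 3% and -0.44 at 7%, and ZRT1, the high-affinity zinc transporter, was lower at both (-3.01 and -2.14). TPO4, a polyamine exporter, had -1.20 at 3% and 0.18 at 7%, the latter with an adjusted p of 0.1176.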

How the data were processed

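Total RNA of 9 groups of cultures was hybridised to 18 yeast microarrays, 2 a group, whose probe sets also cover a second yeast. The values used are the deposited intensities of the authors' series table, 1 signal per probe set and array, made with GCOS per the submitters' processing notes. The sources used here give neither its version nor its settings. Each array was scaled to the same 2% trimmed mean over the S. cerevisiae probe sets and transformed to log2(signal + 16). Of 5449 annotated genes, 5363 exceeded the 95th percentile of the second yeast's 1746 probe sets, the background limit, on at least 2 arrays; where a gene had several single-gene probe sets the brightest was used. Probe sets were named through the platform annotation, with symbols updated from RefSeq.

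limma 3.58.1 (R 4.3.3) was fitted with a mean for each of the 9 groups and an intensity trend (9 residual and 10.7 prior degrees of freedom). The contrasts were the strain difference at each ethanol level and the change of that difference from 0% or 3% to 7%, two-sided, with Benjamini-Hochberg adjustment over all genes. Data were simulated for these groups with normal noise, a difference of 1 (log2) in 100 genes, 0.5 in another 100 and none in the rest. Of these 99% and 67% were recovered at 7%, and 4.05% of the calls were false. Far more genes were called in the data, where scaling also shifts all genes, so this false share need not hold for them.

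"At least" folds set the brighter strain's mean against the background limit or the dim probe's own value, whichever was higher, where a gene was below the limit on both arrays of the other strain. Genes were named by rule: the 15 largest called differences in each direction with arrays that did not overlap, the 6 largest changes in each direction against 0% and 3%, the members of a described list with the smallest adjusted p and those against its direction, the mating-type lists, and genes detected in 1 strain. The rule covers single-gene probe sets; TPS3, YDJ1, SIS1 and the genes said to be read by a shared or related probe set were named after their values were seen. The members, the 55 gene lists and the tests were chosen with earlier results of these data known, and 2 genes (RRS1 and MRP8) were taken out of lists they do not belong to after values were seen. Lists were described by counts and medians, without a test.

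Alternatives were 3 other scalings, pseudocounts of 1 and 64, other filters, every probe set, the 12 haploid arrays alone, no intensity trend, array weights, a replicate block, the 18S control as a covariate, and leaving out each array. Same-numbered arrays were not treated as pairs, as the labels name no pairing, and the deviations of the 2 strains at 7% correlated at -0.03 across genes. No sequences are shown, as no probe, promoter or genome sequence was used here.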

Additional observations from a re-analysis of the deposited data

Results flagged for a closer look

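The strain difference at 7% ethanol was tested against that at 0% and at 3%, and the largest changes in each direction stood out, all past the threshold of limma's test adjusted over all genes. From 0% to 7% the difference (log2, alpha-labelled minus a-labelled) rose by 4.94 in FLO11, 2.28 in YER053C-A, 1.59 in YRO2, 1.59 in AGA1, 1.49 in HMG1 and 1.42 in RNR3. It changed by -3.81 in HXT2, -2.96 in MET3, -2.67 in SNZ1, -2.57 in SUT1, -2.55 in TMA10 and -2.30 in CHA1. From 3% to 7% it rose by 4.15 in FLO11, 1.74 in YER053C-A, 1.69 in MF(ALPHA)2, 1.38 in TPO4, 1.38 in ZPS1 and 1.30 in CYC1. It changed by -3.83 in HXT2, -2.19 in SUT1, -2.04 in MET3, -1.74 in MPC3, -1.67 in YKR075C and -1.62 in MET2. The tests against both levels share the arrays at 7%.

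The arrays also carry 3470 probe sets, controls aside, without a gene name here, and these can belong to either yeast. Of the 704 that stood above the background limit, 18 were higher and 75 were lower in the alpha-labelled strain at 7%, in a fit that the gene counts do not include.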

How the results depend on the processing

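The 54 differences of single genes tested again were the largest at 7% and the largest changes against 0% and 3%. Under 17 alternatives all 918 values kept their direction and their side of the threshold. Differences picked for their size were likely to hold, so this does not cover smaller calls. RPC25 was lost with quantile normalization and PEX25 with no scaling. The counts depended more on the processing. Genes higher in the alpha-labelled strain at 7% numbered 923, and 1485 with median centring and 193 with no scaling. Genes whose difference changed from 0% numbered 2034, and 1103 with quantile normalization. Those that changed from 3% numbered 342, and 180 with no scaling. Leaving out 1 of the 4 arrays at 7% gave 649 to 736 genes higher, 1143 to 1346 lower, 1397 to 1856 changed from 0% and 188 to 244 changed from 3%, the last being 192 without array 2 of the alpha-labelled strain and 188 without array 2 of the a-labelled strain. With a replicate block there were 935 genes higher, 1541 lower, 2072 changed from 0% and 354 changed from 3%. The labels do not say whether same-numbered arrays were processed together. Deviations of same-numbered haploid arrays correlated between -0.24 and 0.18, which cannot settle it with 2 arrays a group. The causes of these shifts were not tested, apart from the fewer arrays that leaving one out implies. Signals near the background limit of 5.21 to 5.67 set only a bound on a fold.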

Other observations

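At 7% ethanol HMX1, the heme oxygenase of the iron list, had a signal of 9.87 and 10.8 in the alpha-labelled strain and 85.4 and 89.4 in the a-labelled strain (-1.97 ± 0.143, limma adjusted p = 8.73e-10). It had differed by -0.52 at 0% and -1.44 at 3%. Of the 24 iron genes 7 were lower and 2, SMF3 (0.56) and FRE5 (0.42), higher, near or below the shares of all genes (28.7% and 17.2%). Among phospholipid genes under inositol control, INO1, the inositol synthase, had 204 and 167 against 616 and 624 (-1.67 ± 0.166, adjusted p = 1.024e-07), and the activator gene INO2 was lower at 7% (-0.76) and higher at 0% (0.69). That list of 19 was at about the shares of all genes, with 5 lower and 3 higher, INM1, EPT1 (0.29) and CPT1 (0.21). Of 39 peroxisome and beta-oxidation genes 20 were lower and 1, PEX25 (0.35), higher at 7%. The call of PEX25 was lost with no scaling and when any 1 of the 4 arrays at 7% was left out. At 0% 5 genes of this list were lower and 14 higher, near the 15.8% and 34.7% of all genes. FOX2, the multifunctional beta-oxidation enzyme, had 35.7 and 32.2 against 99.1 and 107 at 7% (-1.25 ± 0.161).

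Autophagy genes were lower in 16 of 34 cases and higher in none at 7%, against 28.7% and 17.2% of all genes. ATG8, the autophagosome ubiquitin-like protein, was lower (-1.55 ± 0.108, adjusted p = 5.061e-10). Without array 2 of the a-labelled strain 10 autophagy genes were lower. Proteasome genes were lower in 14 of 35 cases and higher in 1, RPT2 (0.28), at 7%, and lower in 1 and higher in 15 at 0%, where 15.8% and 34.7% of all genes were, with medians of -0.19 and 0.12 against -0.07 and 0.13 over all genes. Proteasome genes lower at 7% numbered 3 after median centring, and 9, 8 and 5 without array 1 or 2 of the alpha-labelled strain or array 2 of the a-labelled strain. Of 11 genes of plasma membrane ion transport and its regulation 5 were higher and none lower, against 17.2% and 28.7% of all genes. PMA1, the proton pump, was higher by 0.39 ± 0.0732 (adjusted p = 0.0002018). The others higher were the small proteolipid genes PMP2 (0.54) and PMP1 (0.53) and the kinase genes SAT4 (0.57) and HAL5 (0.39). The other transporter and channel genes of the list were not called. Of 33 cell wall genes 7 were lower and 6 higher, near the shares of all genes. CWP1 and UTR2 were among those lower (-1.45 ± 0.0867 and -1.11 ± 0.0785), and those higher were GAS3 (0.54), GAS5 (0.42), SCW10 (0.30), EXG1 (0.29), GAS1 (0.19) and FKS1 (0.17). Of 6 biotin genes 1 was lower at 7%, BIO2, the biotin synthase (-0.62 ± 0.102, adjusted p = 5.57e-05), fewer than the share of all genes, and 5 were higher at 3%, where 17.6% of all genes were.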
